A study of Sus scrofa with 36 samples.

Results

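The oxytocin receptor gene OXTR and the smooth-muscle gene transgelin, TAGLN, were followed through the mammary gland of 36 pigs in 9 treatment groups. The members were the probe sets annotated to OXTR alone or to TAGLN alone, and for each gene the one with the highest mean over all arrays was to be used. Each gene had 1 such probe set (Entrez gene 397092 for OXTR and 397021 for TAGLN). They are 2 of the 6360 genes represented on the arrays. Both were chosen as readouts of the contractile myoepithelium.

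Oxytocin from the posterior pituitary binds its receptor, a Gq-coupled membrane protein, on the myoepithelial cells that surround the milk-producing alveoli. The calcium signal that follows activates myosin light chain kinase, the cells contract, and milk is let down. Transgelin is an actin-binding protein of the calponin family and part of the contractile apparatus, whose gene is a standard target of serum response factor and its cofactors. It is not particular to the myoepithelium: smooth muscle of blood vessels, pericytes and myofibroblasts carry it too. Estrogen is known to raise oxytocin receptor expression in the uterus.

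The animals were female peripubertal Yucatan miniature swine aged 5 months, with 4 in each group and 1 array of total mammary gland RNA for each animal. The sham group kept its ovaries after surgery and received saline for 13 days. The other 32 animals were ovariectomized and were first treated for 8 days with bromocriptine, which acts on dopamine receptors to lower prolactin. Over the 5 days that followed they were given bromocriptine alone (group B), with estrogen (BE), with progesterone (BP) or with both (BEP), or else haloperidol, which blocks dopamine receptors and raises prolactin, alone (H), with estrogen (HE), with progesterone (HP) or with both (HEP). No group was ovariectomized without bromocriptine, so ovary removal and bromocriptine cannot be told apart in a comparison of B with sham, and every H animal had also had bromocriptine. All animals were given BrdU, a label of DNA synthesis, 24 hours before the end. The animals within a group carry the letters A to D.

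The deposited log2 values had array medians from 7.83 to 7.91, and 0 pairs of arrays were identical. Precision depends on the number of animals and on the spread of a gene among them, and an array has no read depth. The mean level of OXTR was above that of 54.6% of probe sets, and the mean level of TAGLN above that of 97.7%. The array labelled BP A stood apart: over all probe sets it lay nearest to the mean of HE, and its level of WAP, a milk protein gene, was 12.8 against 5.99 to 9.14 in the other BP animals and 12.7 to 13.2 in HE. The array labelled B A had the highest skeletal muscle score of the B animals, 6.53 on the log2 scale against -1.22 to -0.11 in B animals B, C and D. That score is the mean of 16 measured of 21 listed muscle genes after centring each over the 36 arrays. In BP A it was 3.24, the highest of the BP animals, against -1.25 to -0.83 in HE. By this score BP A was not like HE. Values without these arrays stand beside the main results that they moved. In whole tissue, fewer cells of a type and less RNA per cell cannot be told apart.

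OXTR was higher in the animals given estrogen, and TAGLN was not called for estrogen but was lower in B than in sham. Among the 16 animals given estrogen the log2 level of OXTR ran from 8.17 to 9.60 with a median of 9.09. Among the 16 ovariectomized animals not given it, OXTR ran from 6.04 to 9.28 with a median of 7.21. Of the animals without estrogen, 14 of 16 lay below every animal given it. The highest of them was the array labelled BP A, and with it left out the range ended at 8.23, and 15 of the 16 estrogen-treated animals exceeded it.

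In the sham animals A to D, which kept their ovaries, OXTR was 8.48, 8.32, 9.59 and 7.33. In B it was 7.57, 8.23, 7.46 and 6.48. In BE it was 8.91, 9.53, 9.60 and 8.98. The 4 BE animals all lay above the 4 B animals, and the sham animals spread over both ranges.

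With progesterone and bromocriptine, OXTR in BP was 9.28, 6.83, 6.09 and 7.48. With estrogen added, OXTR in BEP was 8.17, 9.45, 9.50 and 9.11. BP animals B to D lay below every BEP animal, and BP A lay above BEP A and BEP D. BP A also gave BP the widest spread of the 9 groups.

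In H, OXTR was 7.94, 6.16, 7.31 and 7.11, and in HE it was 8.53, 8.83, 8.69 and 9.07. In HP it was 7.73, 6.38, 6.04 and 7.10, and in HEP it was 9.14, 8.74, 9.56 and 9.15. On haloperidol the groups with and without estrogen did not overlap.

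The group means of OXTR, in ascending order and as mean ± SD over 4 animals, were 6.81 ± 0.76 in HP, 7.13 ± 0.74 in H, 7.42 ± 1.37 in BP, 7.43 ± 0.73 in B and 8.43 ± 0.92 in sham. Above sham came HE with 8.78 ± 0.23, BEP with 9.06 ± 0.62, HEP with 9.15 ± 0.33 and BE with 9.26 ± 0.36. No pair of neighbours in this order passed a two-sided exact permutation test (adjusted p of 0.882 or more over the 8 pairs). The smallest p that 4 against 4 animals allow is 0.0286, so after adjustment a single separated step could not have passed. Neighbours in a sorted order are also the closest groups, so the test cannot show that they are alike. The largest step between neighbours was the one from B to sham, 0.99 on the log2 scale (exact p = 0.171). The 4 estrogen groups occupied the upper end of the order and the 4 ovariectomized groups without it the lower end.

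**Figure D1:**
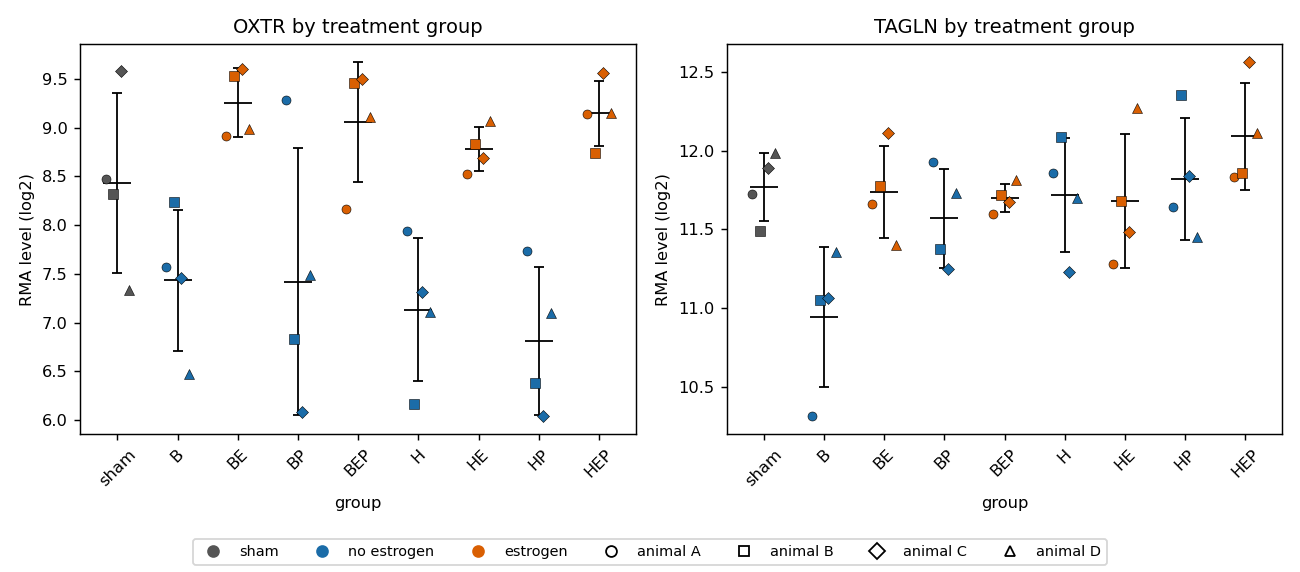
Log2 RMA level of OXTR (left) and TAGLN (right) in each of the 36 animals, by treatment group, with the animal's letter as the symbol, estrogen as the colour, and the bars giving mean ± SD over 4 animals. OXTR was 8.17 to 9.60 in the 16 animals given estrogen, and the BP animal at 9.28 is the array labelled BP A. TAGLN was 10.31 to 11.35 in B and 11.23 to 12.56 in all other animals. The vertical axes differ and do not start at 0.

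Averaged over progesterone and haloperidol, estrogen raised OXTR by 1.86 ± 0.25 on the log2 scale (SE, 16 animals against 16, 95% interval 1.35 to 2.37), a 3.63-fold difference (limma, adjusted p = 1.54e-06). Calls were common in this comparison, at 35.1% of probe sets (17.5% higher, 17.6% lower), and the difference in OXTR was larger in size than that of 99.1% of probe sets. The difference was between 1.75 and 2.02 when each array was left out in turn, and it was 2.03 without BP A and B A together.

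Markers of other cells differed with estrogen too. Over all probe sets 17.6% were called lower and 17.5% higher with estrogen. Of the adipocyte markers 5 of 8 measured were called lower, with a median change of -1.24. Their score was -1.64 to 0.41 with estrogen and -0.92 to 1.15 without it. Of the endothelial markers 7 of 10 were called lower (median -0.60), with scores of -0.90 to 0.13 and -0.60 to 0.90. Of the fibroblast and myofibroblast markers 6 of 14 were called higher and 1 lower (median 0.12), with scores of -0.37 to 0.56 and -0.42 to 0.02. The largest median change was that of the skeletal muscle markers, at -2.23, where 12 of 16 were called lower and 1 higher. Without BP A and B A it was -1.54. Their part in the level of OXTR was not tested.

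Taken background by background, estrogen raised OXTR by 1.82 ± 0.50 on bromocriptine (BE against B, adjusted p = 0.0321, 3.78% of probe sets called), by 1.65 ± 0.50 on haloperidol (HE against H, adjusted p = 0.0197, 19.9% called) and by 2.33 ± 0.50 on haloperidol with progesterone (HEP against HP, adjusted p = 0.0021, 16.5% called). The last call held with each of the 36 arrays left out. The call of BE against B was lost without any 1 of B A, BE A, BE B, B C, BE C, B D or BE D (adjusted p from 0.0514 to 0.123). That of HE against H was lost without H B (1.32, adjusted p = 0.0845) or HE D (1.55, adjusted p = 0.0502). With progesterone on bromocriptine (BEP against BP) the difference of 1.64 ± 0.50 did not pass (adjusted p = 0.0951, 0.784% called), and without BP A it was 2.26 and passed (adjusted p = 0.0026).

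These effects of estrogen on OXTR were not shown to depend on the other treatments. The interaction of estrogen with progesterone was 0.25 ± 0.50 (95% interval -0.77 to 1.27, adjusted p = 0.912, 0.25% of probe sets called), and was 0.56 without BP A and 0.03 without BP C. With haloperidol in place of bromocriptine the effect of estrogen differed by 0.26 ± 0.50 (95% interval -0.76 to 1.28, adjusted p = 0.791, 7.48% called), and by -0.05 without BP A. The interaction of all 3 treatments was 0.87 ± 1.00 (95% interval -1.17 to 2.92, adjusted p = 0.999), and here limma called 0% of probe sets, with 918 at an unadjusted p under 0.05. It was 0.25 without BP A and 1.32 without BP C. These intervals are wide beside the estrogen effect itself, so a moderate dependence could not have been detected.

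Progesterone and haloperidol did not move OXTR past the test. The average difference with progesterone was -0.04 ± 0.25 (95% interval -0.55 to 0.47, adjusted p = 0.9999, 0.0914% of probe sets called), and -0.20 without BP A. With haloperidol in place of bromocriptine it was -0.32 ± 0.25 (95% interval -0.84 to 0.19, adjusted p = 0.473, 6.98% called), and -0.17 without BP A. The interaction of progesterone with haloperidol was 0.13 ± 0.50 (adjusted p = 0.99997, 0% called by limma and 971 at an unadjusted p under 0.05), and 0.44 without BP A. Both average intervals exclude a change of the size seen with estrogen.

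Within single backgrounds neither treatment was called for OXTR. The differences with progesterone were -0.01 on bromocriptine (BP against B, 0.024% of probe sets called), -0.20 with estrogen (BEP against BE, 0.149%), -0.32 on haloperidol (HP against H, 0%) and 0.37 on haloperidol with estrogen (HEP against HE, 0.476%), each ± 0.50 and with an adjusted p from 0.930 to 0.99996. Those with haloperidol in place of bromocriptine were -0.30 (H against B, 0.0337% called), -0.48 (HE against BE, 10.5%), -0.61 (HP against BP, 0%) and 0.09 (HEP against BEP, 1.08%), with an adjusted p from 0.590 to 0.996. Where limma called 0%, 568 probe sets (HP against H) and 1006 (HP against BP) had an unadjusted p under 0.05. Without BP A, whose level raised the BP mean, HP and BP differed by 0.01. Without BP A and B A, BP against B was -0.59 (adjusted p = 0.643).

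Against sham, OXTR was not called in any of the 8 ovariectomized groups with all arrays in the fit. The differences of the groups without estrogen were -0.99 ± 0.50 in B (adjusted p = 0.273, 4.18% of probe sets called), -1.01 in BP (adjusted p = 0.481, 0.13% called), -1.30 in H (adjusted p = 0.143, 4.04% called) and -1.62 in HP (adjusted p = 0.0740, 2.75% called). That of B was -0.61 without sham C and -1.36 without sham D. Without BP A, BP passed (-1.63, adjusted p = 0.0399) and so did HP (-1.62, adjusted p = 0.0231), and HP also passed without HP A (-1.92, adjusted p = 0.0467) or sham D (-1.98, adjusted p = 0.0477). The groups given estrogen lay above sham by 0.83 in BE, 0.63 in BEP, 0.35 in HE and 0.72 in HEP (adjusted p from 0.425 to 0.749, with 0.63%, 0.164%, 3.61% and 0.731% called). Sham animals C and D alone, at 9.59 and 7.33, spanned the distance between the groups with and without estrogen.

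TAGLN had its lowest levels in B. In the B animals A to D the log2 level was 10.31, 11.05, 11.06 and 11.35. In sham it was 11.72, 11.49, 11.89 and 11.98. B animals A, B and C, 3 of 4, lay below every other animal of the study, and the 32 animals outside B ran from 11.23 to 12.56.

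With 1 treatment added to bromocriptine, TAGLN was 11.66, 11.77, 12.11 and 11.40 in BE and 11.93, 11.38, 11.25 and 11.73 in BP. In BEP it was 11.60, 11.72, 11.67 and 11.81. Every BE and BEP animal lay above every B animal, and of the BP animals only BP C lay below B D.

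On haloperidol, TAGLN was 11.86, 12.09, 11.23 and 11.70 in H and 11.28, 11.68, 11.48 and 12.27 in HE. It was 11.64, 12.35, 11.84 and 11.45 in HP and 11.83, 11.86, 12.56 and 12.11 in HEP. Of the 28 ovariectomized animals outside B, 25 lay above every B animal. The other 3 were BP C, H C and HE A.

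In ascending order the group means of TAGLN were 10.95 ± 0.44 in B, 11.57 ± 0.31 in BP, 11.68 ± 0.43 in HE, 11.70 ± 0.09 in BEP, 11.72 ± 0.36 in H and 11.74 ± 0.29 in BE (SD, n = 4 each). Sham followed with 11.77 ± 0.22, HP with 11.82 ± 0.39 and HEP with 12.09 ± 0.34. The step from B to BP, 0.63, was the largest between neighbours (two-sided exact permutation p = 0.0571, adjusted p = 0.457). The other 7 steps were between 0.02 and 0.27 (adjusted p = 0.971 each). Here too a single separated step could not have passed after the adjustment. Groups from BP to HP lay within 0.25 of each other, and their animals overlapped.

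Relative to sham, TAGLN fell by 0.83 on the log2 scale in B (SE 0.24, 95% interval -1.32 to -0.33), or 1.77-fold lower (adjusted p = 0.0449), where 4.18% of probe sets were called and 2.62% were called lower. The call stood close to the threshold. It was lost without any 1 of sham A, sham C, sham D, B A, B B, B C, BE A, BE B, BEP B, BEP C, H A, H D, HE B, HP C or HEP D (adjusted p from 0.0504 to 0.182). Without B A the difference was -0.62, as it was without both B A and BP A (adjusted p = 0.148), while it stayed below 0 in all 36 fits with 1 array left out. The other 7 groups differed from sham by -0.20 (BP) to 0.32 (HEP), and none was called (adjusted p from 0.511 to 0.963).

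Markers of other cells were compared between B and sham as well. Of the luminal epithelial genes 3 of 20 were called lower, and of the fibroblast and myofibroblast genes 1 of 14, against 2.62% of all probe sets. Without BP A and B A the luminal calls were 2 lower and 1 higher. The array B A, which had the lowest TAGLN of all 36, had the muscle score of 6.53 given above and a luminal epithelial score of -2.18, against -1.23 to 0.50 in the other B animals and -0.29 to 0.27 in sham (20 of 22 luminal genes measured). The score of pericytes and vascular smooth muscle, with 8 of 14 genes measured, overlapped between B (-0.20 to 0.19) and sham (-0.25 to 0.36). The fibroblast and myofibroblast score, with 14 of 17 genes, was -0.27 to -0.09 in B and 0.01 to 0.40 in sham, without overlap. The myoepithelial score without OXTR and TAGLN, with 13 genes, was -0.43 to 0.00 in B and -0.13 to 0.29 in sham. Adipocyte markers were higher in B for 8 of 8 measured genes (median 0.92), with scores of -0.28 to 1.15 in B and -0.74 to 0.26 in sham. Endothelial markers were higher for 9 of 10 (median 0.35), with scores of 0.21 to 0.38 and -0.50 to 0.51. Of either list limma called 0, against 4.18% of all probe sets. Their part in the level of TAGLN was not tested.

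Adding a single treatment to bromocriptine gave differences in TAGLN from B of 0.79 ± 0.24 for estrogen (BE, adjusted p = 0.0591), 0.77 ± 0.24 for haloperidol in place of bromocriptine (H, adjusted p = 0.238, 0.0337% of probe sets called) and 0.63 ± 0.24 for progesterone (BP, adjusted p = 0.377, 0.024% called). All 3 share the B animals, and none passed with all arrays in the fit. BE against B passed without any 1 of BP A, HP B, HEP C, B D or HE D (adjusted p from 0.0389 to 0.0497). Without B A and BP A the 3 differences were 0.58, 0.56 and 0.30 (adjusted p = 0.187, 0.422 and 0.653).

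In the other backgrounds TAGLN was not called for any of the 3 treatments. Estrogen made a difference of 0.13 on progesterone (BEP against BP), -0.04 on haloperidol (HE against H) and 0.27 on both (HEP against HP), each ± 0.24, and the first was 0.25 without BP A. Haloperidol gave -0.06, 0.25 and 0.39 in the backgrounds with estrogen, progesterone and both, and progesterone gave -0.04, 0.10 and 0.41 with estrogen, haloperidol and both, none of them called. The average over the 4 backgrounds was 0.29 ± 0.12 for estrogen (95% interval 0.04 to 0.53, adjusted p = 0.0614, 35.1% of probe sets called). For haloperidol it was 0.34 ± 0.12 (0.09 to 0.58, adjusted p = 0.0844, 6.98%). For progesterone it was 0.28 ± 0.12 (0.03 to 0.52, adjusted p = 0.926, 0.0914%), and 0.19 without BP A and B A. These intervals, which are not adjusted for the number of probe sets, exclude 0. The estrogen average passed without any 1 of BP A, HE A, H B, HP B, B D or BE D (adjusted p from 0.0313 to 0.0441). The haloperidol average passed without BP A (0.37, adjusted p = 0.0444). The interaction of all 3 treatments was 0.97 ± 0.48 (95% interval -0.01 to 1.96, adjusted p = 0.999), 0.76 without B A and 0.64 without B A and BP A. The interaction of estrogen with progesterone was -0.18 ± 0.24 (adjusted p = 0.862), and -0.07 without B A. That of estrogen with haloperidol was -0.34 ± 0.24 (adjusted p = 0.392), and that of progesterone with haloperidol was -0.04 ± 0.24 (adjusted p = 0.99997), and 0.07 without B A. None passed the test.

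**Figure D2:**
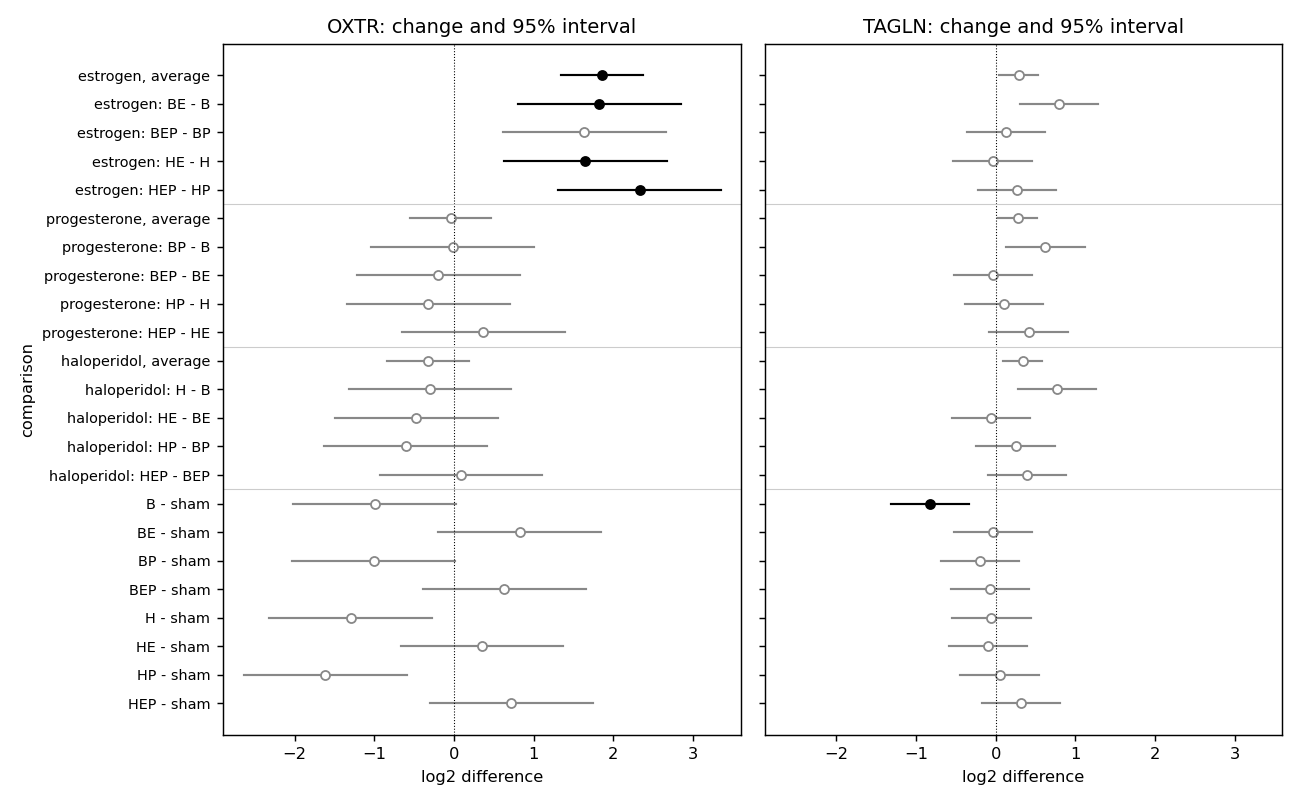
Log2 differences of OXTR (left) and TAGLN (right) with their 95% intervals for estrogen, progesterone, haloperidol in place of bromocriptine and each ovariectomized group against sham. Filled black points passed an adjusted p of 0.05 and open grey points did not. OXTR passed for the average effect of estrogen (1.86) and in 3 of its 4 backgrounds, and TAGLN passed for B minus sham alone (-0.83).

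The pair was then compared directly. The estrogen effect on OXTR exceeded that on TAGLN by 1.57 on the log2 scale (two-sided permutation of estrogen among the ovariectomized animals of a background, p = 1e-05, the smallest that 100000 permutations can give). Without BP A and B A the excess was 1.76 (permutation p = 1e-05). This test was chosen after the levels had been seen.

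No relation between the genes was detected among the animals of a group. After subtracting each group's mean, Pearson's r between the genes was 0.12 over the 36 animals (permutation p = 0.514) and Spearman's rho was 0.17 (permutation p = 0.369). Leaving out BP A and BP C, the animals farthest from the median in OXTR, gave r = -0.05. Without BP A and B A, r was 0.01 (permutation p = 0.940). The SD of the deviations over the 36 animals was 0.65 for OXTR and 0.29 for TAGLN. Its divisor was 36 and not the 27 residual degrees of freedom, so it understates the spread within groups.

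**Figure D3:**
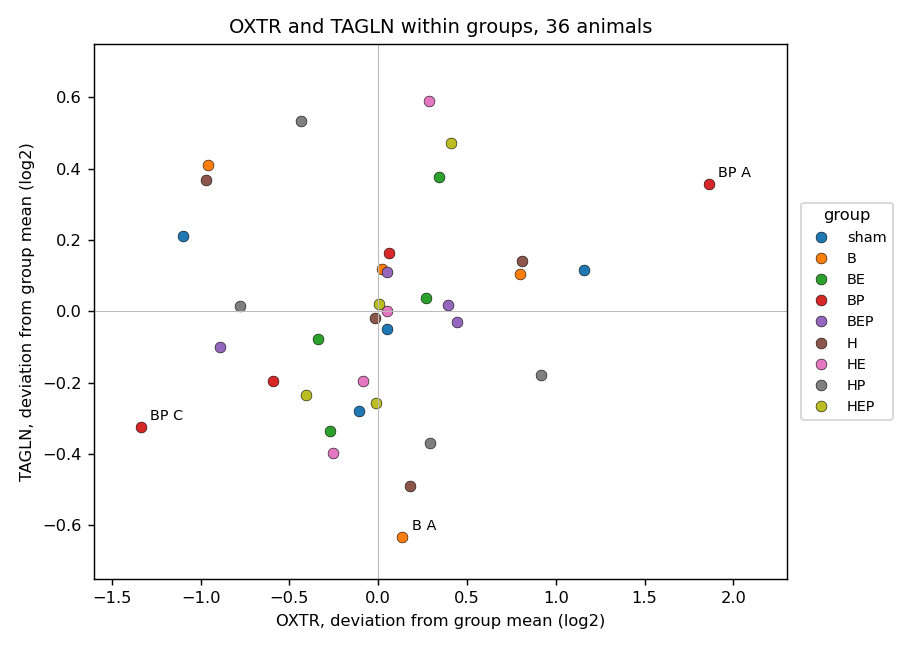
Deviation of OXTR (horizontal) and of TAGLN (vertical) from the group mean, log2, with 1 point for each of the 36 animals and colour for the group. The points show no common slope (r = 0.12). BP A lies at the far right and B A at the bottom.

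In the rest of the oxytocin pathway the share of genes called with estrogen was close to that over all probe sets. Of a list of 49 genes of oxytocin receptor signalling, 24 were measured under their symbol, and the hormone gene OXT and the vasopressin receptor gene AVPR1A were not among them. Besides OXTR, 5 members rose with estrogen, namely RGS2, RGS4, RGS5, CALM2 and CALM3, and 3 fell, PPP1R14A, CAMK2D and ARRB2. That is 9 of 24 against 35.1% of all probe sets, and the median change was 0.11 against 0.01 over all probe sets. OXTR had the largest change of the list.

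Among the members downstream of OXTR, RGS4 and RGS5, which encode proteins that shorten G-protein signals, rose by 0.96 ± 0.17 (adjusted p = 5.84e-05) and 0.75 ± 0.14 (adjusted p = 0.000118). PPP1R14A, the gene of an inhibitor of myosin phosphatase, fell by 1.05 on the log2 scale (SE 0.26, adjusted p = 0.0024). The calmodulin gene CALM2 rose by 0.24 ± 0.11 and lost its call without any 1 of 12 arrays (adjusted p from 0.0514 to 0.0679). MYLK, the gene of the kinase that starts contraction, was at 0.19 ± 0.22 (adjusted p = 0.522). With haloperidol 1 of the 24 was called (against 6.98% of all probe sets), ORAI1, a store-operated calcium channel gene, which rose by 0.83 ± 0.24 (adjusted p = 0.0316) and lost its call without any 1 of 11 arrays (adjusted p from 0.0504 to 0.0602). With progesterone limma called 0 of 24, against 0.0914% of all probe sets. In B against sham 3 of the 24 were called, against 4.18% of all probe sets, named here after their values were seen. RGS4 fell by 1.82 (adjusted p = 0.0013), and ARHGEF12, the gene of an exchange factor for RhoA, rose by 1.28 (adjusted p = 0.0096, not called without sham D at 0.0601). CAMK2D, a calcium-dependent kinase gene, rose by 0.99 (adjusted p = 0.0386) and lost its call without sham A, sham B, sham D, B A or B B (0.0553 to 0.195). OXTR itself, at -0.99, was not called there.

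OXTR was also read beside other genes known to respond to estrogen, of which 7 of 14 listed were measured. AREG, the gene of the growth factor amphiregulin, rose by 3.19 ± 0.27 (adjusted p = 2.59e-09), and PGR, the progesterone receptor gene, by 2.26 ± 0.26 (adjusted p = 1.37e-07). CXCL12, a chemokine gene, fell by 0.56 on the log2 scale (SE 0.16, adjusted p = 0.0085). The change of OXTR was the third largest of the 7. Unlike OXTR, PGR and AREG were also called in B against sham, where PGR fell by 2.36 (adjusted p = 0.0081) and AREG fell by 3.95 (adjusted p = 4.90e-05). That OXTR differed from them there was not tested.

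In B against sham the genes of the contractile apparatus that were called all fell, as TAGLN did. Of 36 listed genes 28 were measured, and 5, TAGLN among them, were called lower and 0 higher, against 2.62% and 1.56% of all probe sets. The median of the list was -0.16 against 0.03 over all probe sets. The other 4 are named here after their values were seen. They were ACTA2, the smooth muscle actin gene (-0.71 ± 0.18, adjusted p = 0.0201), CNN1, the calponin gene (-1.003 ± 0.27, adjusted p = 0.0283), SMTN, the smoothelin gene (-1.05, adjusted p = 0.0446), and PDLIM7, the gene of an actin-associated scaffold (-1.43, adjusted p = 4.90e-05).

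These calls differed in how far they rested on single arrays. Without BP A and B A, 3 of the 5 were called, CNN1 (-1.03), SMTN (-1.14) and PDLIM7 (-1.35), and TAGLN and ACTA2 (-0.45, adjusted p = 0.0853) were not. ACTA2 lost its call without B A, sham B or B C (adjusted p from 0.0514 to 0.105), and CNN1 without sham A, sham C, sham D, B B or B C (0.0618 to 0.0897). SMTN lost it without any 1 of sham A, sham D, B A, B B, B C, BEP B, BEP C, H B or H C (0.0503 to 0.170). PDLIM7 kept its call in all 36.

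Like TAGLN, ACTA2 was lowest in B among the 9 groups, at 11.39 against 11.78 to 12.11 in the others. CNN1 was lowest there too, at 7.39 against 7.65 to 8.55. Other genes of the same apparatus did not share this: MYL9, a regulatory light chain, was 10.03 in B and 10.12 in sham. By its brightest probe set TPM2, a tropomyosin, was 13.05 and 13.17. Its other probe sets gave B minus sham differences of -0.18, 1.07 and 0.90, none of them called (adjusted p from 0.357 to 0.602). DES, the desmin gene, was 7.46 in B and 6.54 in sham (0.92 ± 0.67, adjusted p = 0.477). The array B A had the skeletal muscle score of 6.53 given above, and the part of muscle in the level of DES was not tested. MYLK was at 0.65 ± 0.43 and CALD1, the caldesmon gene, at 0.33 ± 0.22, and neither was called (adjusted p = 0.434 and 0.424).

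With estrogen the contractile list had a share of called genes close to that over all probe sets. ACTA2, PDLIM7, FLNA and ITGA8 rose, and ACTG2, SYNM, CSRP1, HSPB6, CRYAB, PLN and FHL1 fell, which is 11 of 28 against 35.1% of all probe sets, with a median of 0.03 against 0.01. ITGA8, an integrin gene of smooth muscle, rose by 0.84 ± 0.22 (adjusted p = 0.0039), and ACTA2 by 0.28 ± 0.09 (adjusted p = 0.0141). PLN, the phospholamban gene, SYNM, the synemin gene, and CSRP1, a LIM-domain gene, fell by 0.87, 0.86 and 0.76 (adjusted p = 0.0120, 0.0010 and 0.0029). The estimate for TAGLN, 0.29, was of the same size as that for ACTA2 and had a larger error.

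Some genes of the list, PLN, SYNM, CRYAB, HSPB6 and FHL1 among them, are known from striated muscle as well. The skeletal muscle score ran from -1.33 to -0.75 in the animals given estrogen and from -1.22 to 6.53 in the others, and 12 of its 16 genes were called lower with estrogen, against 17.6% of all probe sets. Its part in these falls was not tested. The 2 probe sets of ACTG2, the enteric smooth muscle actin gene, disagreed: the brighter gave -0.36 (adjusted p = 0.0441, lost without any 1 of 23 arrays) and the other 0.89 (adjusted p = 0.0074). In B against sham they also differed in sign, at 0.21 and -1.21, and neither was called (adjusted p = 0.739 and 0.176). A dimmer probe set of TPM2 was called lower with estrogen (-1.79, adjusted p = 0.0059), while the brightest was at 0.13 (adjusted p = 0.158).

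With haloperidol 3 of the 28 contractile genes were called, against 6.98% of all probe sets. CKB, the brain-type creatine kinase gene, rose by 0.62 ± 0.15 (adjusted p = 0.0080). FHL1 and CRYAB fell, CRYAB by 0.49 (adjusted p = 0.0386, lost without any 1 of 17 arrays). TAGLN, at 0.34, was not among the called genes.

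**Figure D4:**
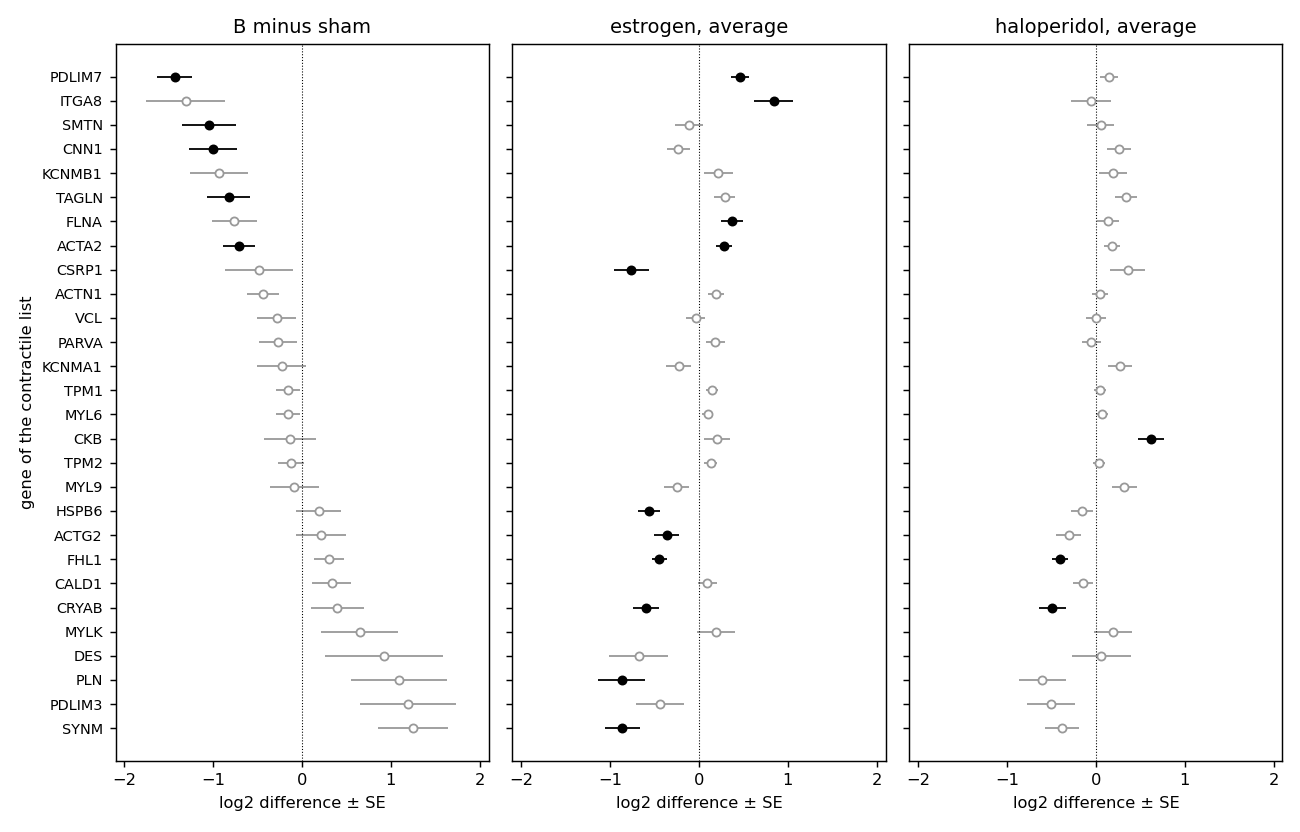
Log2 difference ± SE of the 28 measured genes of the contractile list for B minus sham (left), the average effect of estrogen (middle) and that of haloperidol (right), in the order of the left panel. Filled black points passed an adjusted p of 0.05. TAGLN lies toward the low end of this sorted order, as do PDLIM7, SMTN, CNN1, ACTA2 and FLNA, of which FLNA (-0.76) was not called. In the middle panel black points lie on both sides of 0.

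Within its own family, whose 6 genes were all measured, TAGLN was called only with CNN1 and only in B against sham. That is 2 of 6, TAGLN itself included, against 4.18% of all probe sets. Both genes are in the contractile list too, so this is no separate evidence. With estrogen 2 of the 6 were called, both higher, a share close to the 35.1% of all probe sets. They were CNN2 and CNN3, calponins also found outside muscle, which rose by 0.66 ± 0.18 (adjusted p = 0.0055) and 0.63 ± 0.15 (adjusted p = 0.0016). TAGLN2 was at 0.20 (adjusted p = 0.469), CNN1 at -0.23 (adjusted p = 0.182) and TAGLN3, a neuronal form with a low signal here, at -0.36 (adjusted p = 0.141). With haloperidol and with progesterone limma called 0 of the 6, against 6.98% and 0.0914% of all probe sets.

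Serum response factor and its cofactors drive TAGLN, and 13 of 26 listed regulators and targets outside the contractile list were measured. With estrogen 3 of the 13 were called, against 35.1% of all probe sets. ANKRD1 and TLN1 fell, by 0.91 and 0.45 (adjusted p = 0.0036 and 0.0015). FHL2, a LIM-domain cofactor gene, rose by 0.35 ± 0.12 (adjusted p = 0.0239), and its value without BP A and B A was 0.24 (adjusted p = 0.0525). In B against sham FHL2 was the 1 called member of 13 (against 4.18% of all probe sets) and fell by 1.11 (adjusted p = 0.0066), in the direction of TAGLN. Without those arrays FHL2 fell by 0.78 (adjusted p = 0.0280). The median of the list in B against sham was 0.07 against 0.03 over all probe sets, and 6 of the 13 genes were below 0. Without those arrays the median was -0.10.

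Neither member is a marker of one cell type, and in the lists of the cells that carry them 5 of 15 myoepithelial and 3 of 8 pericyte genes were called with estrogen, against 35.1% of all probe sets. Of 29 myoepithelial and basal markers 15 were measured, and KRT5, KRT14, KRT17, TP63 and MYH11, the defining ones, were not, so the myoepithelium was not checked by its own keratins. With estrogen ITGA6, an integrin gene of basal cells, rose by 0.95 ± 0.23 (adjusted p = 0.0016) with OXTR and ACTA2, and EGFR and DST fell. DST, a hemidesmosome gene, also fell with haloperidol, by 0.50 (adjusted p = 0.000128). Of the 8 measured pericyte and vascular genes RGS5 rose with estrogen while GJA4 and KCNJ8 fell, by 1.25 and 0.56, KCNJ8 losing its call without HE B, HEP B, BP D or BEP D (adjusted p from 0.0512 to 0.0542). In B against sham limma called 0 of these 8, where 4.18% of all probe sets were called, so 0 of so few genes is uninformative. Of the 15 myoepithelial genes 3 were called lower there (ACTA2, CNN1 and TAGLN), against 2.62% of all probe sets. These 3 are also in the contractile list and were counted there, so this is no separate evidence. Without BP A and B A CNN1 alone was called lower, and EGFR was called higher.

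Over the 36 arrays the gene whose log2 levels were most like those of OXTR, among 6192 named genes, was STMN1, which encodes the microtubule protein stathmin (Pearson's r = 0.88). CKS2, CCNB1, RCN1 and CCNB2 followed, each at r = 0.86. CKS2, CCNB1 and CCNB2 encode a cyclin-dependent kinase subunit and the B-type cyclins of mitosis. All 5 rose with estrogen, STMN1 by 1.12, CKS2 by 2.02, CCNB1 by 3.66, RCN1 by 0.92 and CCNB2 by 3.34. The likeness was less within groups, where r was 0.61 to 0.71. The genes most opposite to OXTR were HSD17B1, an estradiol-forming enzyme gene (r = -0.84), ACOT8 (-0.83) and OSER1 (-0.82). The genes were picked by their likeness to OXTR on arrays that share treatments, so a shared rise with estrogen is part of that choice. Such correlations are a description.

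The 5 genes most like TAGLN were FLNA, the gene of the actin cross-linker filamin A (r = 0.76), CCL2, a chemokine gene (0.76), TGFB3, a transforming growth factor gene (0.75), SMARCB1 (0.75) and CDR2L (0.74). CCL2 and TGFB3 were called in B against sham, where they fell by 1.08 and 0.81 (adjusted p = 0.0061 and 0.0126), and FLNA was not (-0.76, adjusted p = 0.0822). TGFB3 was not called without B A (adjusted p = 0.0641). These genes were picked by their likeness to TAGLN on the same arrays, so their falls in B are no separate evidence. Most opposite were CCNG1 (r = -0.77), MRPS36 (-0.75) and CAV2 (-0.73). Among the contractile genes r with TAGLN was 0.72 for ACTA2, 0.51 for MYL9, 0.44 for CNN1, 0.34 for MYLK, 0.18 for TPM2, 0.05 for CALD1, -0.33 for ACTG2 and -0.47 for DES. With OXTR it was 0.27.

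**Figure D5:**
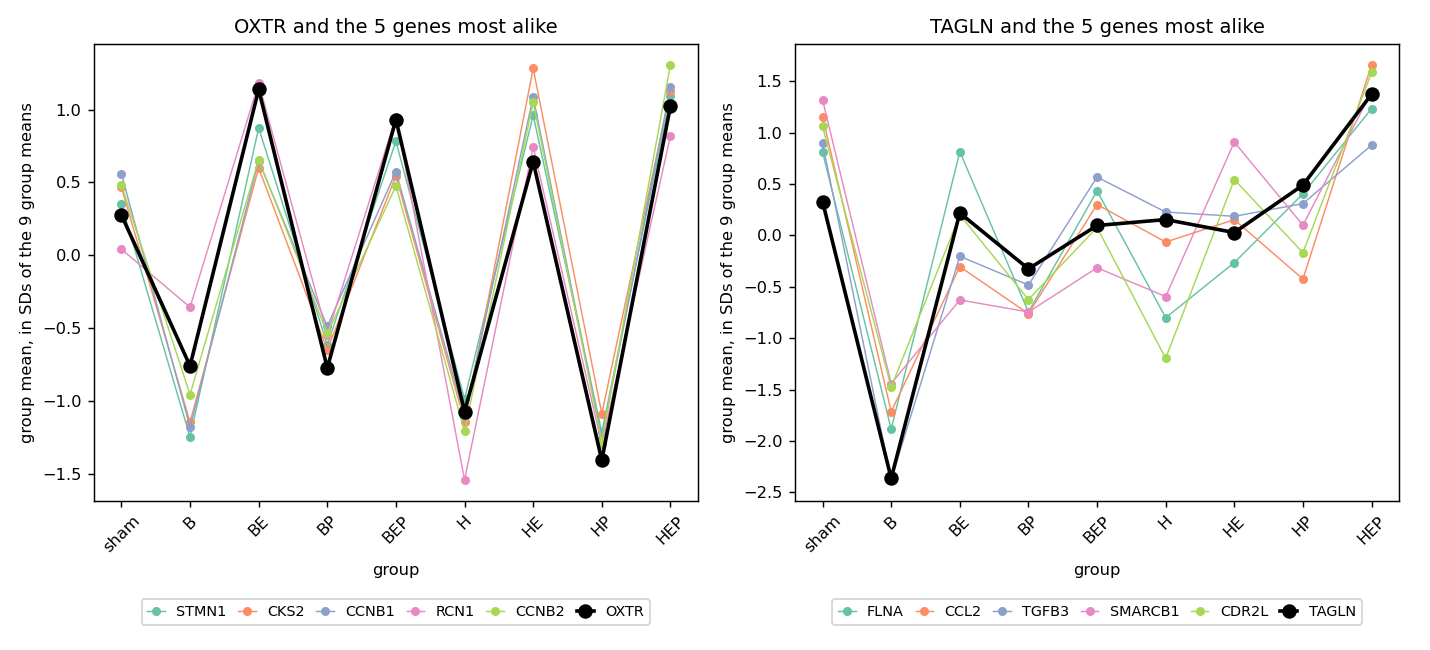
Mean level in each of the 9 groups, centred and divided by the SD of the 9 means, for OXTR and the 5 genes most like it over the 36 arrays (left) and for TAGLN and its 5 (right). The lines only join the points of a gene, and the groups have no order. Each set of 5 was picked by its likeness on these same arrays. OXTR and its 5 are above 0 in BE, BEP, HE and HEP and below 0 in B, BP, H and HP, while TAGLN and its 5 share their lowest point in B.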

How the data were processed

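Total RNA of 36 mammary glands was reverse transcribed with oligo-dT primers, labelled with biotin as cRNA and hybridized to 1 array per animal, per the labels' protocols. The authors deposited RMA-normalized values, per the submitters' processing notes. The RMA version, the software and the base of the logarithm were not given in the sources used here. Values from 1.55 to 13.74 were read as log2, on which every fold rests, and were used as deposited.

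Of 20792 probe sets, 9149 had 1 gene symbol, 178 several and 11465 none here, and 9054 identifiers matched the reference table. A gene was represented by its brightest probe set. A linear model with 9 group means was fitted to all arrays in limma 3.58.1 (R 4.3.3, 27 residual and 4.16 prior degrees of freedom). Two-sided p-values received a Benjamini-Hochberg adjustment across all probe sets in each comparison, and under 0.05 was called. An interaction is the difference between a factor's effects at the levels of another. The fit was tested on simulated data.

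Members, 13 gene lists and tests were chosen with earlier results of these data known. Besides OXTR and TAGLN the text names the family list, fixed contractile genes and keratins, up to 4 called genes per list for estrogen and 2 for haloperidol, and the 5 most and 3 least alike. Counts of 5 or fewer are named outside that rule, after their values were seen. Genome positions were not used here. List counts and single backgrounds without arrays, and the direct comparison of the pair, were added after seeing the data.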

Additional observations from a re-analysis of the deposited data

How the results depend on the processing

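Over the 8 main comparisons of OXTR and TAGLN, 736 alternative values were computed, of which 686 kept their direction and side of the threshold, 18 lost a call, 9 gained one and 23 changed sign. The estrogen effect on OXTR passed in all alternatives run, at 1.75 to 2.03. The call of TAGLN in B against sham was lost with a second quantile normalization (-0.82, adjusted p = 0.0590), with only B and sham in the fit (-0.83, adjusted p = 0.170) and without both BP A and B A (-0.62), and single arrays left out gave -0.96 to -0.62. The estrogen effect on TAGLN passed without dim probe sets (0.29, adjusted p = 0.0496) and with a variance trend (0.29, adjusted p = 0.0414), and single arrays left out gave 0.24 to 0.33, and 0.29 to 0.38 for haloperidol. Changes of sign came from values near 0 that were not called. The interaction of estrogen with haloperidol for OXTR was -0.026 with array weights and -0.073 without both arrays, and -0.050 to 0.48 with single arrays left out. That of progesterone with haloperidol for TAGLN was 0.13 without both, and -0.12 to 0.069 with single arrays left out, against -0.094 to 0.44 for OXTR. The average effect of progesterone on OXTR ran from -0.20 to 0.070. The cause was not tested.

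Counts over all probe sets moved by over 1.5 times in some settings. In the order estrogen, haloperidol, progesterone, estrogen with progesterone and B against sham, the main counts of 7305, 1451, 19, 52 and 870 became 4213, 929, 7, 12 and 450 without dim probe sets, and 2568, 628, 8, 14 and 299 with 1 probe set per gene, where fewer probe sets were tested. Array weights gave 2776 for haloperidol, 44 for progesterone, 162 for estrogen with progesterone and 2709 for B against sham. For estrogen with haloperidol the main count of 1556 became 2399 with array weights and 706 with 1 probe set per gene. For all 3 treatments the main count of 0 became 3 with a variance trend, 4 with array weights, 2 with the letter as a fixed block, and 1 with 1 probe set per gene, with a smaller set of groups and without both arrays. The smaller set gave 249 for B against sham, and leaving out both arrays gave 2419 for haloperidol and 32 for progesterone. Single arrays left out gave 1066 to 2431 for haloperidol, 18 to 31 for progesterone, 27 to 84 for estrogen with progesterone, 980 to 2545 for estrogen with haloperidol, 0 to 4 for all 3, and 424 to 1276 for B against sham. The share called higher in B against sham, 37.4%, was 56.6% with array weights, 21.7% with 1 probe set per gene and 17.7% with B and sham alone, and 19.1% (without sham D) to 54.1% (without sham C) with single arrays left out.

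With the letter as a replicate block the call of TAGLN in B against sham had an adjusted p of 0.049 as a fixed and 0.0413 as a random term, and no call on OXTR or TAGLN changed. The letters do not pair animals in the labels. Arrays of the same letter in different groups had a median correlation of 0.05 over 144 pairs, with 52 over 0.1, against -0.02 over 432 pairs of different letters. Using another probe set of the gene gave no value, since each gene had 1. The 4 animals in a group limit the single backgrounds, where an SE was 0.50 for OXTR and 0.24 for TAGLN.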
